A study of Mus musculus with 18 samples.

Results

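Xenobiotic-metabolizing enzymes are the oxidases, hydrolases, reductases and transferases that alter drugs, dietary chemicals, bile acids and steroids. In the annotation of the array used here, 134 of 18194 genes with a probe set of a single symbol belonged to them. Members were chosen by symbol alone: cytochromes P450 of the families Cyp1 to Cyp4, carboxylesterases Ces1 and Ces2, flavin-containing monooxygenases (Fmo), aldo-keto reductases Akr1, aldehyde dehydrogenases Aldh1, glutathione S-transferases (Gst of 5 classes and Mgst), UDP-glucuronosyltransferases (Ugt) and sulfotransferases (Sult). No measured value entered this rule, but the rule was set with earlier results of these data known. Their 134 genes had 180 probe sets, of which the one with the highest mean level across the 18 arrays stood for its gene.

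Xenobiotic metabolism is usually described in phases. Oxidation, reduction or hydrolysis by P450s, Fmo, Akr, Aldh and Ces enzymes exposes or adds a reactive group, and Gst, Ugt and Sult enzymes then attach glutathione, glucuronic acid or sulfate so that the product can be exported. In the small intestine these enzymes sit mainly in enterocytes, where they act on compounds before they reach the liver. Many of the same enzymes also act on retinoids, fatty acids, eicosanoids, bile acids and steroids.

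The arrays followed the ileum of C57BL/6 mice, an inbred strain, at postnatal days 4, 7, 9, 11, 24 and 32, with 3 individual mice at each age and no treatment named. Each piece held the whole gut wall, so that muscle, connective tissue, nerve, vessels and immune cells contributed RNA beside the epithelium. Days 4 to 11 (12 arrays) are called before weaning and days 24 and 32 (6 arrays) after weaning. The labels name these stages without a day, and the division is general knowledge of laboratory mice. Levels are log2 values as deposited, made by RMA, a method that corrects background, equalizes the arrays and summarises the probes of a set; 1 unit is a doubling. Levels of different probe sets were not compared with each other.

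Arrays of one age had correlations of at least 0.983, no pair held identical values, and array medians ran from 3.88 to 3.97, so a level near 4 cannot be told from background. Markers of absorptive epithelium were high throughout, with a list mean of 10.31 to 10.46 before and 11.00 to 11.31 after weaning. Of these 10 markers 7 rose and 3 fell, and all 6 fibroblast markers fell. In tissue pieces, fewer cells of a type and less RNA per cell cannot be told apart, which holds for every difference given here. Of 10 hepatocyte markers 4 were tested, of which 3 fell and 1 rose after weaning, with a median difference of -2.24 on the log2 scale. Their list mean was 4.72 to 5.12 before and 3.76 to 4.04 after weaning, and 2 of the 4, Ttr and Fga, already fell between days 4 and 11. Ttr fell from a mean of 12.21 to 6.11 between the stages, and Alb, Ahsg, Fgg and Hpx stayed below 3.3 on average in both. The part of liver-type transcripts in the results was not tested. Sex-linked genes gave a male pattern on 3 of the 12 arrays from before weaning and on 5 of the 6 later ones. Hybridization controls placed 4 arrays from before and all 6 from after weaning in a higher group. Poly-A control probe sets lay at 3.53 to 4.51 on the arrays from before and at 4.98 to 6.37 on those from after weaning, without overlap, so that this control and the stage cannot be told apart. Counts with the sex-linked pattern and with the hybridization group taken into account are given below.

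Of the 134 members 57 reached log2 6 on at least 3 arrays and were tested, among 8622 genes in all; 71 of the other 77 lay below 6 on every array. Of those tested, 39 reached the level in both stages, 14 only after and 4 only before weaning, and these last 2 groups had to differ between the stages. By limma's F test with Benjamini-Hochberg adjustment, 47 of 57 changed over the 6 ages, against a background of 68.3% of all genes tested. Between the stages 49 were called (background 72.9%). After weaning 34 were higher (background 31.0%) and 15 lower (background 41.8%), and the median difference over tested members was 0.42 on the log2 scale, against -0.07 over all genes tested. At least 2-fold differences were found for 19 higher (background 7.53%) and 9 lower members (background 11.5%). Since the filter admits a gene through either stage, the same fit was made with no filter: of all 134 members, 61 were then higher (background 28.9%) and 20 lower (background 27.5%).

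All arrays after weaning lay above all those before it for 24 tested members (background 15.4%) and below them for 11 (background 21.7%). Members that passed the filter only through arrays after weaning, or only through those before, had to differ in that direction. This favours such a separation. The counts of separate stages and of at least 2-fold differences were not made without the filter, so its part in them was not tested. On the arrays with the male pattern alone, 28 members were higher (background 20.0%) and 14 lower (background 29.5%). Within the higher hybridization group, 27 were higher (background 25.4%) and 14 lower (background 31.1%). These 2 restrictions were added after seeing the data. With the hybridization group as a block in the fit of all arrays, 30 were higher (background 30.8%) and 14 lower (background 35.5%). With the Xist level as a covariate the counts were 29 (background 26.1%) and 15 (background 37.3%).

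**Figure D1:**
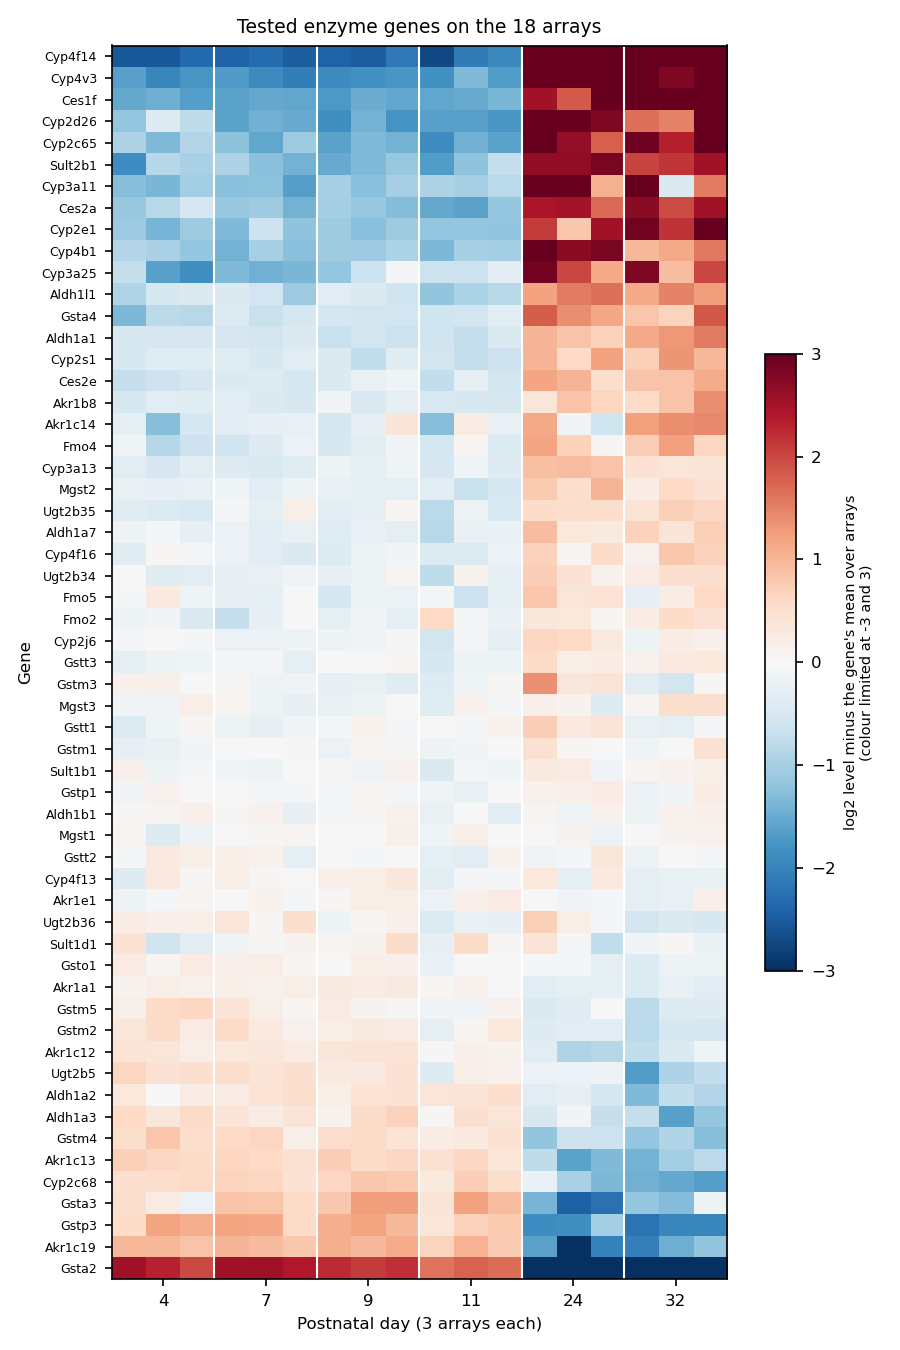
Level of the 57 tested enzyme genes (rows, ordered by their difference between stages) on the 18 arrays (columns, by postnatal day), as the log2 level minus the gene's mean; red is above and blue below that mean. The arrays of days 24 and 32 part from the earlier ones, with Cyp4f14 (7.10 higher) at the top and Gsta2 (difference -6.47) at the bottom.

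**Figure D2:**
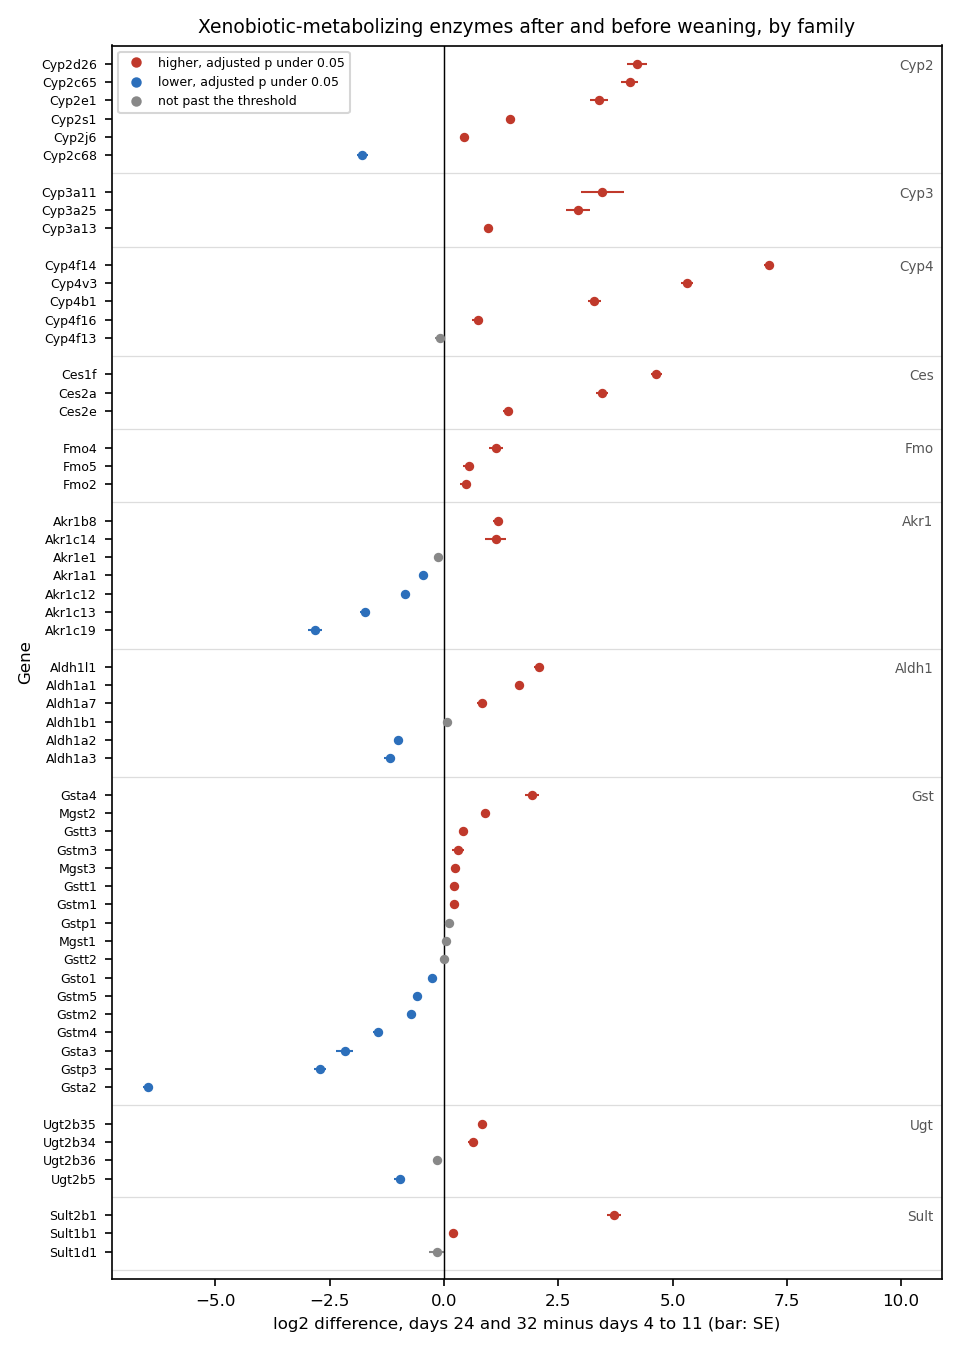
Difference in log2 level between days 24 and 32 and days 4 to 11 for each tested member, grouped by family, with its standard error from the limma fit; red and blue mark an adjusted p below 0.05. Every called member of Cyp3, Cyp4, Ces, Fmo and Sult lies to the right of 0, whereas Akr1, Aldh1, Gst and Ugt hold members on both sides. Members that passed the filter only through arrays after weaning, such as Cyp4f14, had to lie to the right.

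By family, the counts of called members rest on 3 to 17 tested genes each and are set beside the 31.0% of all genes tested that were higher and the 41.8% that were lower. In Cyp3 all 3 tested members rose, in Cyp4 4 of 5, in Ces 3 of 3, in Fmo 3 of 3 and in Sult 2 of 3, and none of these families had a fall. In Cyp2, 5 rose and 1 fell. Among the reductases Akr1, 2 rose and 4 fell of 7, among Aldh1 3 rose and 2 fell of 6, among Gst and Mgst 7 rose and 7 fell of 17, and among Ugt 2 rose and 1 fell of 4. The share that fell in Gst and Mgst (41.2%) and in Aldh1 (33.3%) and the share that rose in Akr1 (28.6%) were near these backgrounds. The filter fixed the direction of some of these members, which reached log2 6 on at least 3 arrays only after weaning. They include Cyp3a11, Cyp3a25, Cyp4f14, Cyp4v3, Cyp4b1, Ces1f and Fmo4, and in Cyp2 also Cyp2c65, Cyp2d26 and Cyp2e1. Akr1b8 and Gsta4 belong to them as well. Gsta2, Gsta3 and Gstp3 are among the 4 members that in turn reached it only before weaning, so falls in Gst were also fixed in part. Counts by family without the filter are not given, and whether families differ from each other was not tested.

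The Cyp1 family, which holds the classical targets of the aryl hydrocarbon receptor, had no tested member among 3. Cyp1a1 read 2.46 to 2.73 before weaning and 3.65, 2.77 and 2.91 on day 24, then 2.92, 2.73 and 2.60 on day 32. Cyp1b1 read 5.37 to 6.12 before and 5.00 to 5.50 after weaning. Levels of Cyp1a1 and Cyp1a2 thus lay below the array medians on every array.

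Cyp2 is the largest P450 family of the mouse, with 35 members here and 6 tested. Cyp2d26 had 3.96, 4.24 and 5.41 as its lowest, median and highest level before weaning, 10.19, 9.37 and 8.60 on the 3 arrays of day 24 and 7.44, 7.29 and 8.82 on those of day 32. It was 18.7-fold higher after weaning (log2 difference 4.23 ± 0.22, SE, n = 6 against 12; limma adjusted p = 3.53e-12). The 2 stages did not overlap, and 2 of the 3 arrays of day 32 lay below all those of day 24. Cyp2e1, the ethanol-oxidizing P450, ranged from 2.86 to 3.63 (median 3.10) before weaning, then read 6.35, 5.06 and 6.79 on day 24 and 7.16, 6.42 and 7.35 on day 32, a 10.5-fold rise (3.40 ± 0.19; limma adjusted p = 1.72e-11). Cyp2s1, an oxidase of epithelia outside the liver, was 2.74-fold higher (1.46 ± 0.10; limma adjusted p = 1.44e-10), without overlap. Cyp2j6, an intestinal fatty acid oxidase, was 1.36-fold higher, with overlap, and its second probe set had a difference of 0.16 with an adjusted p of 0.240 in limma. On the male-pattern arrays alone its difference was 0.31 and did not pass (adjusted p = 0.136).

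A pair of Cyp2c genes moved in opposite directions. Cyp2c65, an arachidonic acid oxidase of the gut, had a lowest, median and highest level of 3.01, 3.51 and 4.01 before weaning, and read 8.47, 7.52 and 6.67 on day 24 and 7.80, 7.21 and 7.86 on day 32. It was 16.7-fold higher (4.06 ± 0.18; limma adjusted p = 6.78e-13). Cyp2c68 stood at 9.00, 9.31 and 9.50 before, at 8.51, 7.72 and 7.35 on day 24 and at 7.26, 7.17 and 7.06 on day 32, and was 3.44-fold lower (-1.78 ± 0.12; limma adjusted p = 2.58e-10). Neither gene overlapped between stages. Both lie in the same run of Cyp2c genes on chromosome 19. Probe sets of near-identical Cyp2c genes can read each other's transcripts, so that both values are uncertain to that extent.

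Upstream sequences of 3 members of these families are shown because they carry 1 motif in common while the genes moved in different directions. They are 150-base stretches from the 250 bases before the start of the gene, from RefSeq (GRCm38.p6), 5′ to 3′ along the gene. Capitals mark the letters CAAAGTCC, the core of sites for the nuclear receptor HNF4, and in Cyp2c68 also the reverse complement of TNGCGTG, the core of the xenobiotic response element bound by the aryl hydrocarbon receptor. The first is Cyp2c65 at chr19:39060856-39061005 (plus strand), the next Cyp2c68 at chr19:39741102-39741251 (minus strand) and the last Cyp3a11 at chr5:145879855-145880004 (minus strand).
Cyp2c65: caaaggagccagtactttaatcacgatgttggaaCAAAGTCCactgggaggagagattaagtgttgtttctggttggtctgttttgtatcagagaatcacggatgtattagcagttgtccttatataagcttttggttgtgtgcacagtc
Cyp2c68: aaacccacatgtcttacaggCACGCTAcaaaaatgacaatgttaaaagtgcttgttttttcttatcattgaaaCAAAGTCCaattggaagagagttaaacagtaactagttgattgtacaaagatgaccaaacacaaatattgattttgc
Cyp3a11: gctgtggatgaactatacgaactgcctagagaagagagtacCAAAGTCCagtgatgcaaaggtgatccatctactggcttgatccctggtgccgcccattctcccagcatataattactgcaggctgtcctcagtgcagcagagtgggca
Searched on both strands of the 250 bases, CAAAGTCC occurred in 1.20% of all 32851 promoters of the table and in 7 of the 129 promoters found for 110 members (5.43%). These 7 were Cyp2c65, Cyp2c68, Cyp2c70, Cyp3a11, Cyp3a16, Cyp4f18 and Fmo2, of which Cyp2c and Cyp3a genes are copies of each other and share sequence. TNGCGTG occurred in 4.10% of all promoters and in 3 of 129 (2.33%), those of Gsta2, Cyp2c68 and Sult1d1. The antioxidant response element core TGACNNNGC, a site type of Nfe2l2, occurred in 10.2% of all promoters and in 8 of 129 (6.20%). No 2 matches overlapped in the stretches shown, and a match describes letters, not a bound site.

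Cyp3 holds the main drug-oxidizing P450s of the gut and liver. Cyp3a11 ranged from 2.37 to 3.20 (median 2.89) before weaning, below the array medians, and read 8.80, 7.48 and 5.09 on day 24 and 7.47, 3.59 and 5.57 on day 32. It was 11.1-fold higher after weaning (3.47 ± 0.46; limma adjusted p = 2.13e-06), with the largest standard error of the tested members. Every array after weaning lay above those before, but the mice of one age differed by more than 3 units. Cyp3a25 had a lowest, median and highest level of 3.84, 4.75 and 5.62 before weaning and read 8.58, 7.69 and 6.82 on day 24 and 8.48, 6.60 and 7.68 on day 32; it was 7.68-fold higher (2.94 ± 0.26; limma adjusted p = 1.13e-08). Replicate 1 had the highest of the 3 values of its age for both genes, on day 24 as on day 32. Cyp3a13, a P450 prominent in the intestine, was already high before weaning (8.83 to 9.20, median 8.99) and stood at 10.23, 10.27 and 10.19 on day 24 and 9.77, 9.71 and 9.71 on day 32. Its rise was 1.96-fold (0.97 ± 0.06; limma adjusted p = 1.08e-10), and its mice differed little. Cyp3a16 and Cyp3a44 stayed at or below 2.54 on every array.

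Cyp4 enzymes hydroxylate the ends of fatty acids and eicosanoids. Cyp4f14, which inactivates leukotriene B4, had 3.68, 3.97 and 4.47 as its lowest, median and highest level before weaning and read 11.20, 11.11 and 11.11 on day 24 and 10.85, 11.16 and 11.36 on day 32. Its 137-fold rise (7.10 ± 0.10; limma adjusted p = 7.57e-20) was the largest difference measured among the tested members, from a mean of 4.03 that cannot be told from background. Cyp4v3, the mouse form of the fatty acid hydroxylase CYP4V2, ranged from 3.92 to 4.67 (median 4.21) before and read 10.58, 9.88 and 9.50 on day 24 and 9.13, 8.78 and 9.35 on day 32. It was 40.0-fold higher (5.32 ± 0.13; limma adjusted p = 8.19e-17), and its second probe set rose by 5.02. Cyp4b1, a fatty acid oxidase that also activates plant furans, stood at 3.87, 4.23 and 4.39 before, at 9.16, 7.99 and 8.13 on day 24 and at 6.28, 6.41 and 6.87 on day 32, a 9.76-fold rise (3.29 ± 0.14; limma adjusted p = 2.41e-13). For all 3 genes no array after weaning came near those before. Cyp4f16 was 1.66-fold higher (0.73 ± 0.11; limma adjusted p = 9.57e-06), and Cyp4f13 had a difference of -0.09 ± 0.10 (limma adjusted p = 0.404; -0.19 and adjusted p = 0.0498 with array weights). Among Cyp4 genes not tested, Cyp4a12a, Cyp4a14 and Cyp4a31 stayed at or below 3.21.

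Carboxylesterases cleave esters of drugs and lipids. Ces1f, of the triglyceride-hydrolysing Ces1 group, ranged from 2.37 to 2.72 (median 2.54) before weaning and read 6.62, 5.94 and 7.20 on day 24 and 7.77, 7.62 and 8.0 on day 32. It was 25.1-fold higher (4.65 ± 0.13; limma adjusted p = 3.11e-16), and all arrays of day 32 lay above all those of day 24. Ces2a had 4.92, 5.38 and 6.02 as its lowest, median and highest level before and read 8.98, 9.01 and 8.21 on day 24 and 9.23, 8.48 and 9.03 on day 32, 11.0-fold higher (3.46 ± 0.14; limma adjusted p = 7.52e-14). Ces2e, which was bright in every mouse (8.49 to 9.10 before, 9.77 to 10.43 after weaning), was 2.63-fold higher (1.40 ± 0.09; limma adjusted p = 2.28e-10). Ces1 enzymes are also made by fat cells. Of 5 adipocyte markers measured 4 were tested, and all 4 rose (background 31.0%), such as Adipoq, from a mean of 3.11 to 8.56. The filter admits a marker through its high stage, which favours a rise in one so dim before weaning. The list mean of all 5 was 4.43 to 6.61 before and 7.08 to 8.47 after weaning. The part of fat cells in the rises of Ces1f and of Cyp2e1, also made in fat, was not tested.

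**Figure D3:**
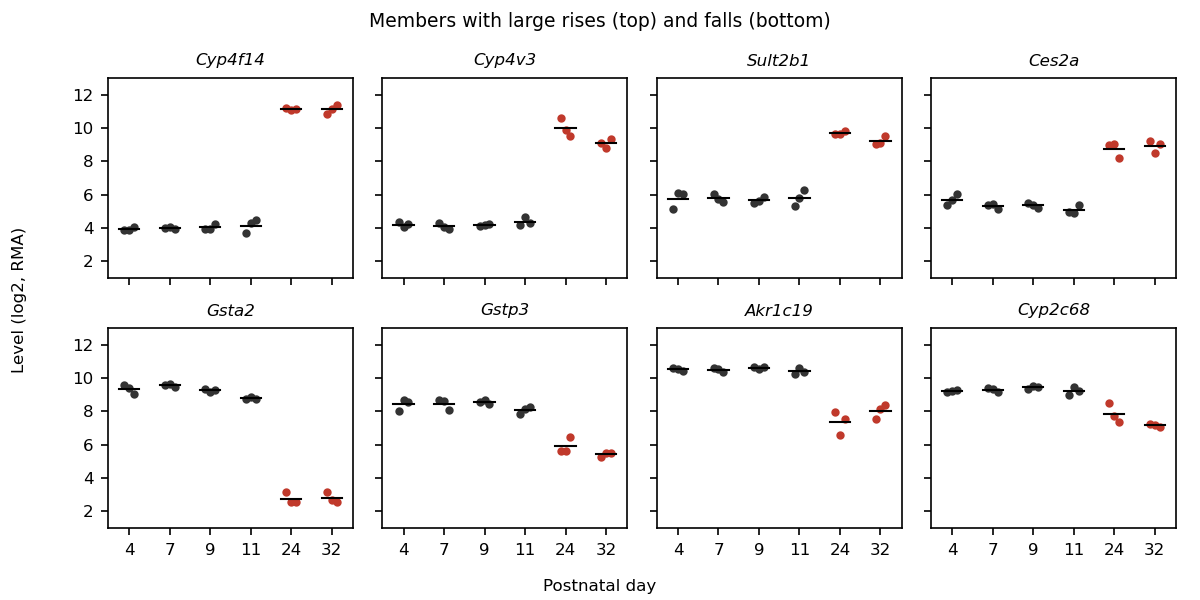
Log2 level on each array by postnatal day (dots, 3 mice per age; bars, means) for 4 members that rose and 4 that fell; dark dots are before and red dots after weaning. Cyp4f14 moves from at most 4.47 to at least 10.85 and Gsta2 from at least 8.71 to at most 3.16, with level values within each stage.

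The flavin-containing monooxygenases oxidize nitrogen and sulfur in drugs. Fmo4 was 2.19-fold higher (1.13 ± 0.15; limma adjusted p = 2.80e-06), with day 24 values of 6.91, 6.42 and 5.76 against a highest value of 5.77 before weaning. Fmo5, which inserts oxygen beside carbonyl groups, rose 1.46-fold (0.54 ± 0.12; limma adjusted p = 0.000535), and a second probe set gave 0.51. Fmo2 rose 1.39-fold (0.47 ± 0.12; limma adjusted p = 0.00137), and a second probe set gave 0.67. All 3 overlapped between the stages. With the hybridization group as a block, the values of Fmo5 and Fmo2 were 0.35 (limma adjusted p = 0.0566) and 0.14 (adjusted p = 0.275).

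The aldo-keto reductases, which reduce aldehydes, ketones and steroids with NADPH, split. Akr1c19 had 10.24, 10.55 and 10.69 as its lowest, median and highest level before weaning and read 7.97, 6.60 and 7.54 on day 24 and 7.53, 8.11 and 8.39 on day 32, 7.05-fold lower (-2.82 ± 0.15; limma adjusted p = 9.65e-12). Akr1c13 stood at 10.11, 10.35 and 10.48 before and at 8.98, 8.14 and 8.41 on day 24 and 8.32, 8.73 and 8.95 on day 32, 3.31-fold lower (-1.73 ± 0.11; limma adjusted p = 6.48e-11). Both fell without overlap, as did Akr1c12 (1.80-fold lower). Akr1c14, a 3-alpha-hydroxysteroid dehydrogenase, moved against them. Its levels were 5.17, 6.20 and 6.83 before, 7.59, 6.38 and 5.85 on day 24 and 7.69, 7.85 and 7.90 on day 32, 2.19-fold higher (1.13 ± 0.24; limma adjusted p = 0.000306) and overlapping on day 24 only. Akr1b8, a reductase of lipid aldehydes and retinal, was 2.26-fold higher (1.17 ± 0.10; limma adjusted p = 7.85e-09), from 4.79 to 5.22 before to 5.69 to 6.72 after weaning. Akr1a1, the general aldehyde reductase, fell by 0.46, but its 3 other probe sets gave -0.01, -0.12 and -0.28. Akr1e1 had a difference of -0.14 (limma adjusted p = 0.127), which passed at -0.17 without day 11 replicate 1 (adjusted p = 0.0444) and at -0.20 without day 32 replicate 3 (adjusted p = 0.0222), and at -0.23 with array weights (adjusted p = 0.00605).

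Within Aldh1, the 3 retinaldehyde dehydrogenases that make retinoic acid did not move together. Aldh1a1 ranged from 8.25 to 8.53 (median 8.43) before weaning and read 9.99, 9.82 and 9.65 on day 24 and 10.09, 10.25 and 10.52 on day 32, 3.12-fold higher (1.64 ± 0.07; limma adjusted p = 3.69e-13). Aldh1a2, a form made mainly in mesenchymal tissue, stood at 6.96, 7.34 and 7.48 before, at 6.63, 6.73 and 6.44 on day 24 and at 5.64, 6.21 and 6.07 on day 32, 2.02-fold lower (-1.01 ± 0.09; limma adjusted p = 4.86e-09). Aldh1a3 ranged from 6.78 to 7.43 before and read 6.25, 6.64 and 6.05 on day 24 and 6.02, 5.10 and 5.58 on day 32, 2.28-fold lower (-1.19 ± 0.13; limma adjusted p = 1.11e-07). None of the 3 overlapped between stages. All 6 fibroblast markers fell as well, by 0.85 to 1.22 on the log2 scale, and their part in the fall of Aldh1a2 was not tested. Aldh1l1, the 10-formyltetrahydrofolate dehydrogenase of folate metabolism, was 4.22-fold higher (2.08 ± 0.11; limma adjusted p = 3.18e-12), from 6.77 to 7.63 before to 9.10 to 9.60 after weaning. Aldh1a7 was 1.78-fold higher, and the mitochondrial Aldh1b1 had a difference of 0.06 ± 0.08 (limma adjusted p = 0.485).

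Among glutathione S-transferases, 17 of 21 members were tested and they went both ways. Gsta2, an alpha class enzyme with peroxidase activity, had the largest measured fall of the tested members. Its lowest, median and highest levels before weaning were 8.71, 9.29 and 9.62, and it read 3.16, 2.53 and 2.53 on day 24 and 3.14, 2.66 and 2.56 on day 32, below the array medians in every mouse. The difference was 88.6-fold (-6.47 ± 0.11; limma adjusted p = 4.43e-19). The stretch before its start, at chr9:78347146-78347295 (minus strand, GRCm38.p6, RefSeq), is shown as that of the member that fell most. It carries TNGCGTG, in capitals, just before the start region.
Gsta2: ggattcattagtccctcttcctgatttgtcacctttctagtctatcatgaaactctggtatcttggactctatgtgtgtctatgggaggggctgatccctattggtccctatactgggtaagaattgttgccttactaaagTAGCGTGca
Gsta4, the alpha class enzyme that conjugates the lipid peroxidation product 4-hydroxynonenal, moved the other way: it ranged from 4.58 to 5.61 (median 5.35) before weaning and read 7.74, 7.31 and 7.08 on day 24 and 6.76, 6.60 and 7.78 on day 32, 3.80-fold higher (1.93 ± 0.14; limma adjusted p = 9.95e-10). Gsta3 stood at 6.01, 7.00 and 7.44 before, at 4.78, 3.74 and 3.96 on day 24 and at 5.03, 4.87 and 6.03 on day 32, 4.51-fold lower (-2.17 ± 0.18; limma adjusted p = 4.18e-09). Only day 32 replicate 3 reached the range seen before weaning.

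In the pi class, Gstp3 ranged from 7.85 to 8.67 (median 8.51) before weaning and read 5.62, 5.64 and 6.45 on day 24 and 5.26, 5.52 and 5.52 on day 32, 6.57-fold lower (-2.72 ± 0.13; limma adjusted p = 1.79e-12). Gstp1, the abundant form, lay between 11.40 and 11.83 on every array, with a difference of 0.12 ± 0.07 (limma adjusted p = 0.114; 0.16 and adjusted p = 0.0440 without day 32 replicate 1, and 0.21 and adjusted p = 0.00473 with cyclic loess). In the mu class, Gstm4 was 2.72-fold (-1.45 ± 0.10), Gstm2 1.66-fold (-0.73 ± 0.09) and Gstm5 1.50-fold lower (-0.59 ± 0.09), with limma adjusted p-values of 2.74e-10, 5.80e-07 and 2.02e-05. Gsto1, of the omega class, fell by 0.27 (-0.18 and limma adjusted p = 0.0719 with the hybridization group as a block). Mgst2, a membrane enzyme that can make leukotriene C4, was 1.86-fold higher (0.90 ± 0.08; limma adjusted p = 6.81e-09), and Gstt3 1.34-fold.

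Smaller rises in Gst genes lost their calls when 1 array was left out. Gstm1 (0.22) lost its call without day 9 replicate 1 (0.20), day 24 replicate 1 (0.14) or day 32 replicate 3 (0.13). Gstm3 (0.31) lost it without day 4 replicate 3 (0.30), day 9 replicate 3 (0.30), day 11 replicate 1 (0.29), day 24 replicate 1 (0.15) or day 32 replicate 3 (0.24). Gstt1 (0.22) lost it without day 24 replicate 1 (0.15) or day 32 replicate 3 (0.19), and Mgst3 (0.24) without any of 11 arrays (0.19 to 0.24). With the Xist level as a covariate none of these 4 passed (limma adjusted p from 0.194 to 0.321). Mu class genes are close copies, and their probe sets can share transcripts.

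Glucuronosyltransferases of the Ugt2 family attach glucuronic acid to steroids, bile acids and drugs; Ugt1 genes were not analysed here, since their probe sets carry several symbols. Ugt2b35 was 1.79-fold higher (0.84 ± 0.09; limma adjusted p = 2.38e-07), from 5.77 to 6.76 before to 6.99 to 7.28 after weaning. Ugt2b34 was 1.55-fold higher (0.63 ± 0.11; limma adjusted p = 7.07e-05), but its second probe set had a difference of -0.08 (adjusted p = 0.513), so that its direction depends on the probe set. Ugt2b5 was 1.96-fold lower (-0.97 ± 0.11; limma adjusted p = 3.49e-07): it stood at 7.36, 8.15 and 8.38 before, 7.56, 7.56 and 7.58 on day 24 and 6.06, 6.80 and 6.99 on day 32. Its values of day 24 lay within the range seen before weaning. Ugt2b36 had a difference of -0.15 (limma adjusted p = 0.176), or -0.25 and adjusted p = 0.00966 without day 24 replicate 1.

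Of 13 sulfotransferases 3 were tested. Sult2b1, which sulfates cholesterol and other sterols, had 5.11, 5.76 and 6.27 as its lowest, median and highest level before weaning and read 9.63, 9.64 and 9.83 on day 24 and 9.01, 9.12 and 9.51 on day 32, 13.1-fold higher (3.71 ± 0.15; limma adjusted p = 1.29e-13). No array lay between 6.27 and 9.01. Sult1b1, which sulfates thyroid hormones and phenols, was bright in both stages (8.91 to 9.52 and 9.28 to 9.65). Its difference of 0.21 lost the call without day 24 replicate 1 (0.17), day 24 replicate 2 (0.18) or day 32 replicate 3 (0.19), and at 0.17 with the Xist level as a covariate (limma adjusted p = 0.182). Sult1d1, a sulfotransferase of dopamine and related amines, had a difference of -0.16 ± 0.17 (limma adjusted p = 0.406), while its second probe set had -0.36 (adjusted p = 0.0204 over probe sets).

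Members below the filter could be described but not tested with the rest. Cyp2b10, the classical target of the constitutive androstane receptor, read 3.74 to 4.28 before weaning, 6.77, 5.98 and 5.19 on day 24 and 4.33, 4.54 and 4.51 on day 32. In the fit without a filter its difference between days 32 and 24 was -1.52 ± 0.25 (limma adjusted p = 0.000924; background 3.48% of all genes lower in that fit). Ugt2a3 read 3.15 to 4.65 before, 6.35, 5.07 and 4.23 on day 24 and 2.89, 2.63 and 2.61 on day 32 (difference between these ages -2.50 ± 0.35; limma adjusted p = 0.000202 without a filter). Both genes were thus highest on day 24, with replicate 1 above the other mice. Cyp2c55 read 2.54 to 3.04 before and 3.74 to 6.79 after weaning, and Ces1d 2.44 to 3.26 and 3.22 to 5.70. Ces2b read 2.43 to 2.87 before and 3.76 to 5.31 after weaning. Cyp2c23 was among the few dim members with lower values after weaning, at 4.86 to 5.55 and then 3.61 to 4.30. Sult1a1, the phenol sulfotransferase, read 4.59 to 5.17 and then 4.76 to 6.03.

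Several folds above have a dim side below the highest array median of 3.97, namely those of Cyp2c65, Cyp2e1, Cyp3a11, Ces1f and Gsta2. Cyp4f14, Cyp4v3, Cyp4b1 and Cyp2d26 had means before weaning of 4.03, 4.22, 4.19 and 4.39, just above it. The size of all these folds depends on the background correction. Of 9 members with several probe sets that passed the filter, 8 had the same sign in all of them; the exception was Ugt2b34.

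Neighbouring genes of one family were compared in the order of the RefSeq gene table, in which 132 of 134 members were found. Members at most 6 positions from the next member in the order of protein-coding genes were joined into runs. At least 2 called members were held by 11 runs, and in 5 of these the calls went both ways. These 5 were the Akr1c run (Akr1c14 higher, Akr1c12, Akr1c13 and Akr1c19 lower), the Cyp2c run (Cyp2c65 higher, Cyp2c68 lower) and the Gsta4 and Gsta2 pair. The others were the Gstm run (Gstm1 and Gstm3 higher, with the limits above, and Gstm2, Gstm4 and Gstm5 lower) and the Ugt2b run with Sult1b1 (Ugt2b34, Ugt2b35 and Sult1b1 higher, Ugt2b5 lower). In the other 6 the called members rose together: Cyp3a11 with Cyp3a25, Cyp4f14 with Cyp4f16, Ces2a with Ces2e, Fmo2 with Fmo4, Gstt1 with Gstt3, and Aldh1a1 with Aldh1a7. The limits given above hold here also for the calls of Fmo2, Gstt1, Sult1b1 and Ugt2b34. Of all genes tested 31.0% were higher and 41.8% lower, and runs of other genes were not counted. Whether runs of members differ from those of other genes was thus not tested.

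Within suckling no tested member passed the threshold. Between days 4 and 11 limma called 0 of 57 members (background 2.89%), with 12 at an unadjusted p below 0.05. The nearest was Gsta2, at -0.57 ± 0.17 (limma adjusted p = 0.0851). Backgrounds in this paragraph are for adjusted p. The share of all genes at an unadjusted p below 0.05 is not given. Whether the unadjusted counts are an excess or a lack among members therefore cannot be told from them. Between days 7 and 4 limma called 0 (background 0.0812%; 2 at an unadjusted p below 0.05), between days 9 and 7 it called 0 (background 0.0464%; 0 unadjusted) and between days 11 and 9 it called 0 (background 0.0464%; 6 unadjusted). Without the filter, Ces1c, a plasma carboxylesterase, had a difference of -0.87 between days 11 and 4 (limma adjusted p = 0.00726) and Cyp2u1, a fatty acid hydroxylase, one of -0.59 (adjusted p = 0.0150), in a fit in which 0.731% of all genes were lower.

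From day 11 to day 24, 44 members were called (background 59.2%), of which 32 rose (background 26.8%) and 12 fell (background 32.3%). Control probe sets for 18S ribosomal RNA lay at 5.60 to 8.19 on day 11 and 10.26 to 10.85 on day 24, and those for poly-A RNA at 3.53 to 4.20 and 5.31 to 5.53. Their part was not tested. Cyp4f14 rose by 6.99 ± 0.17, Cyp4v3 by 5.60 ± 0.21, Cyp2d26 by 5.25 ± 0.35, Cyp2c65 by 4.32 ± 0.30 and Cyp4b1 by 4.26 ± 0.23 on the log2 scale. Gsta2 fell by 6.03 ± 0.17, Akr1c19 by 3.03 ± 0.25 and Gsta3 by 2.86 ± 0.30. For Cyp3a11 the rise of 4.02 ± 0.75 was 3.18 without day 24 replicate 1 and 5.04 without day 24 replicate 3. Gstm3 rose by 0.87, and by 0.53 without day 24 replicate 1; Ugt2b36 rose by 0.58, and by 0.37 without the same array. Calls that were lost when 1 array was left out were those of Gstm2 (-0.39; -0.38 without day 11 replicate 2, -0.25 without day 11 replicate 3, -0.38 without day 24 replicate 1), Sult1b1 (0.35; 0.23 without day 11 replicate 1, 0.28 and 0.31 without day 24 replicates 1 and 2) and Gstp1 (0.27; 0.23 to 0.28 without day 11 replicate 1 or 2 or day 24 replicate 2 or 3).

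After weaning some of the enzymes changed again between days 24 and 32. Here 16 members were called (background 12.3%), of which 4 were higher (background 6.09%) and 12 lower (background 6.23%) on day 32. The share that was higher (7.02%) was near its background. This comparison shares the day 24 arrays with the previous one, so the differences of the 2 intervals are given side by side and not correlated. The 18S controls lay at 7.01 to 7.96 on day 32, where the poly-A controls lay at 4.98 to 6.37, and their part was not tested. Cyp4b1 fell 3.74-fold (-1.90 ± 0.23; limma adjusted p = 2.50e-05), with no overlap between the ages, after a rise of 4.26 from day 11 to day 24. Cyp2d26 fell 2.90-fold (-1.54 ± 0.35; limma adjusted p = 0.00851), a call lost without day 32 replicate 2 (-1.26, adjusted p = 0.0545). Cyp4v3 fell 1.87-fold (-0.90 ± 0.21; limma adjusted p = 0.0102), which was also lost without day 32 replicate 2 (-0.75, adjusted p = 0.0605).

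The other falls were smaller. Gstm3 was 1.99-fold lower (-0.66 on the log2 scale in place of -0.99 without day 24 replicate 1, and -0.55 and limma adjusted p = 0.0641 with the mean of its probe sets), Ugt2b5 1.93-fold, Ugt2b36 1.72-fold, Gstt1 1.56-fold, Aldh1a2 1.54-fold and Cyp3a13 1.42-fold. Aldh1a3 (-0.75) lost its call without day 24 replicate 2 (-0.59) or day 32 replicate 2 (-0.52). Cyp2c68 (-0.70) lost it without day 24 replicate 1 (-0.37) or any 1 array of day 32 (-0.75 to -0.64), and Cyp2j6 (-0.43) without day 24 replicate 1 (-0.37) or 2 (-0.39) or day 32 replicate 1 (-0.32). Cyp3a11 had a difference of -1.58 ± 0.75 (limma adjusted p = 0.181). Its 2 ages overlapped, at 5.09 to 8.80 and 3.59 to 7.47.

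Among the 4 members that were higher on day 32, Ces1f rose 2.32-fold (1.21 ± 0.20; limma adjusted p = 0.000892), on top of a rise of 3.97 from day 11 to day 24. Gsta3 was 2.22-fold higher (1.15 ± 0.30; limma adjusted p = 0.0170), against the fall of 2.86 from day 11 to day 24; the call was lost without day 24 replicate 2 (0.94) or 3 (1.05) or day 32 replicate 3 (0.79). Aldh1a1 was 1.38-fold higher (0.47 ± 0.12; limma adjusted p = 0.0149), a call lost without day 24 replicate 3 (0.38) or day 32 replicate 3 (0.35). Akr1c14 was 2.31-fold higher (1.21 ± 0.38; limma adjusted p = 0.0479), a call lost without any of 12 arrays (0.83 to 1.27). The 3 mice of day 32 were alike for Akr1c14 (7.69 to 7.90), and those of day 24 were not (5.85 to 7.59). In a fit of the 6 arrays of these 2 ages alone, 10 of the 16 calls were lost, at the same differences. These were Akr1c14, Aldh1a1, Aldh1a2, Aldh1a3, Cyp2c68, Cyp2d26, Cyp2j6, Cyp4v3, Gsta3 and Gstm3.

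**Figure D4:**
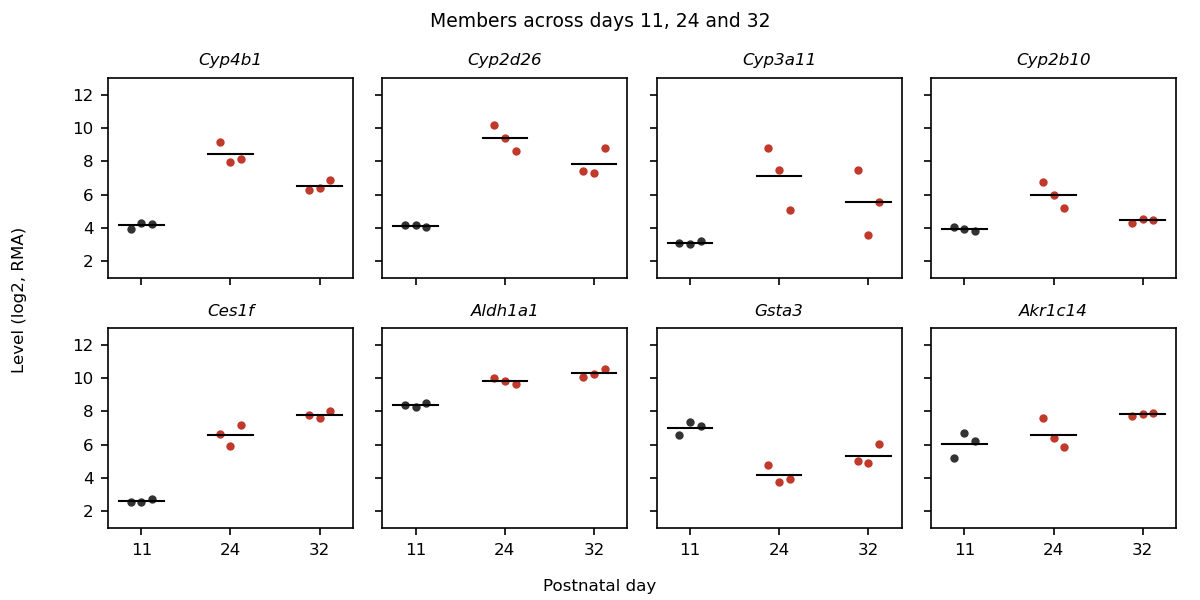
Log2 level on each array at days 11, 24 and 32 (dots, 3 mice per age in replicate order; bars, means) for 4 members with lower means (top) and 4 with higher means (bottom) on day 32 than on day 24. Day 24 replicate 1, the leftmost dot of its age, is the highest of the 3 in 7 of the 8 panels, the exception being Ces1f.

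Other genes of the same pathways were taken from lists chosen by function. Of 15 tested sensors and their partners, 6 rose and 7 fell after weaning, beside backgrounds of 31.0% higher and 41.8% lower that hold for the lists below as well. Vdr, the vitamin D receptor, rose by 2.14 ± 0.09, Hnf4g by 0.86 ± 0.14, Nfe2l2, the regulator of the antioxidant response, by 0.75 ± 0.09, Nr1i2, the pregnane X receptor, by 0.48 ± 0.08 and Hnf4a by 0.44 ± 0.07. Nr1i3, the constitutive androstane receptor, fell by 1.95 ± 0.10, Cebpb by 1.23 ± 0.07, Cebpa by 1.22 ± 0.10, Ahr, the aryl hydrocarbon receptor, by 0.65 ± 0.10 and its partner Arnt by 0.69 ± 0.10. Nr1i3 fell by 1.00 from day 11 to day 24 and by 1.22 from day 24 to day 32. Nr1i2 had a difference of 0.03 in the first of these intervals and rose by 0.62 in the second.

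Of 12 genes that supply electrons or cosubstrates, 4 rose and 7 fell. The sulfate donor is made by Papss1 and Papss2, of which Papss2 rose by 1.74 ± 0.09 and Papss1 fell by 0.64 ± 0.11. Ugdh, which makes UDP-glucuronic acid, fell by 0.86 ± 0.10. The glutathione synthesis genes Gclc, Gclm and Gss fell by 0.91, 0.59 and 1.21, whereas Gsr, which regenerates reduced glutathione, rose by 1.47 ± 0.16. Among 12 tested detoxifying enzymes of other families 7 rose and 5 fell. The monoamine oxidases moved in opposite directions, Maoa from a mean of 7.38 to 11.02 (3.64 ± 0.11) and Maob from 10.61 to 7.57 (-3.04 ± 0.18). The epoxide hydrolases did so too, with Ephx1 higher by 1.06 and Ephx2 lower (-1.29).

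Of 18 transporters measured 12 were tested, of which 7 rose and 5 fell. In these lists too the filter admits a gene through its high stage. This favours a difference in genes that were dim in the other stage, such as Abcc3. Abcc2, the apical exporter of glutathione, glucuronide and sulfate conjugates, fell from a mean of 9.96 to 5.78 (-4.18 ± 0.16), and Abcc3, its basolateral relative, rose from 4.82 to 7.31 (2.50 ± 0.11). The peptide and prodrug importer Slc15a1 rose by 2.92 ± 0.16, the drug efflux pumps Abcb1a by 0.99 ± 0.12 and Abcg2 by 0.61 ± 0.07. The falls, 5 of 12 in transporters and in other enzymes and 7 of 15 in sensors, were near the background share. All genes named from these lists with a rise or fall passed limma's adjusted threshold of 0.05 in the comparison of the stages.

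**Figure D5:**
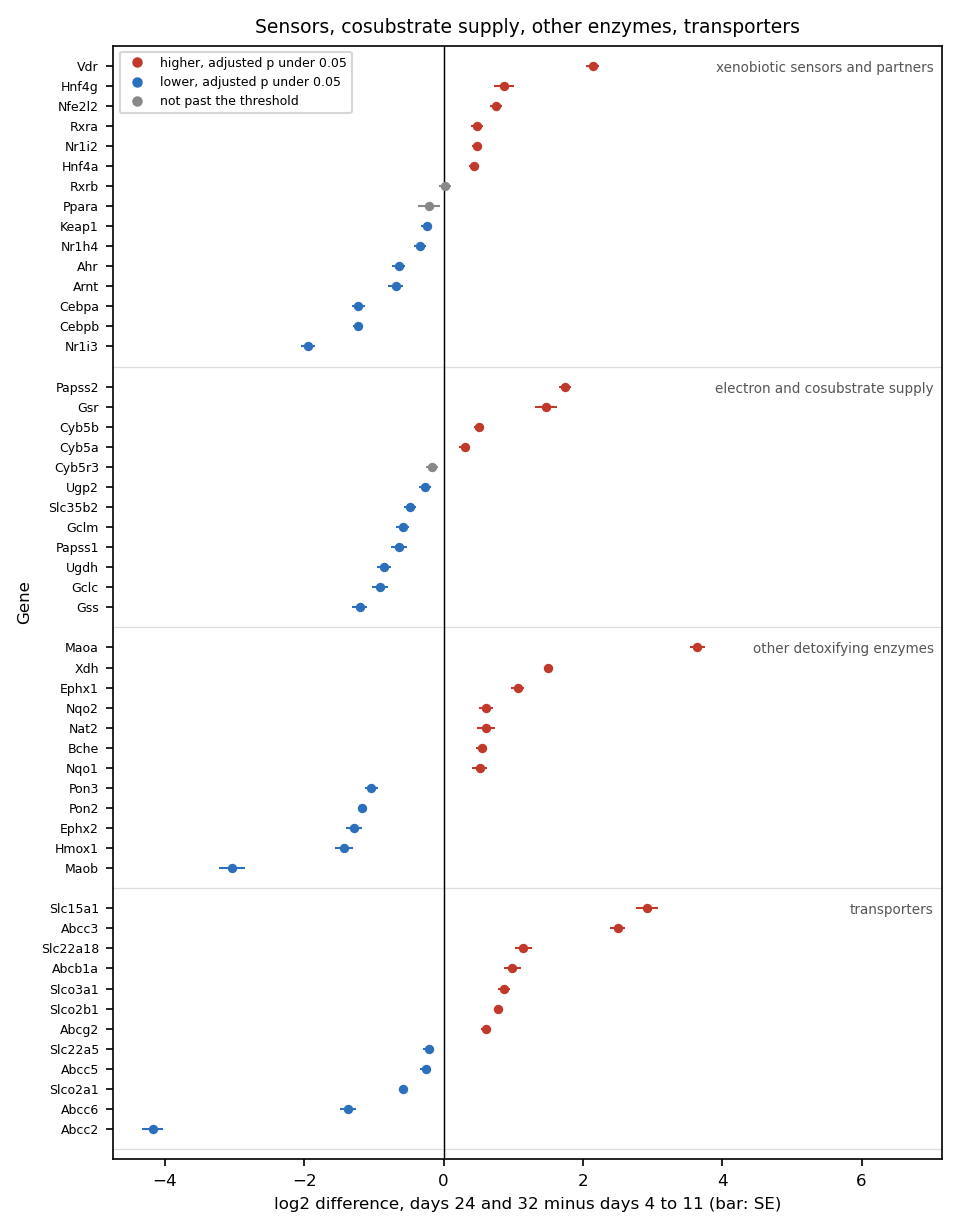
Difference in log2 level between days 24 and 32 and days 4 to 11 (with its standard error) for tested sensors, suppliers of electrons or cosubstrates, other detoxifying enzymes and transporters; red and blue mark an adjusted p below 0.05. Maoa (3.64) and Slc15a1 (2.92) lie farthest to the right, Abcc2 (-4.18) and Maob (-3.04) farthest to the left.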

How the data were processed

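Ileal RNA of 18 mice was measured on Affymetrix arrays. The authors deposited log2 expression values per probe set, by RMA (per the submitters' processing notes, which name no version). Detection calls were not used here. Of 45101 probe sets 64 were controls, 34958 had 1 symbol in the platform annotation, 932 several (left out) and 9211 none here. Genes whose symbols begin with Aldh1 and a further digit (2) belong to other families and were left out, and 10 probe sets with several symbols that include a member name were not used. Gsta1 and Akr1b7 were not analysed here. The number of arrays limits the precision.

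A gene was tested if its probe set reached log2 6 on at least 3 arrays. limma 3.58.1 in R 4.3.3 (lmFit, eBayes) fitted age as a factor over 8622 genes on all arrays, with 12 residual degrees of freedom and a median residual SD of 0.176. Benjamini-Hochberg values below 0.05 over all genes tested were called. A ± after a difference is a standard error. p-values set a difference against the spread between mice of the same age, pooled over the 6 ages. The same fit, tested on simulated data, had 200 genes changed by known folds. No per-sample column of the table was left unused.

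The members, the lists of related genes and markers, and the tests were chosen with earlier results of these data known. The rule for named genes took up to 4 called members per family with the largest stage difference, up to 2 per family in later comparisons, called members that moved against most of their family, and sentinel genes; every member may be named. Others were named for a changed call. Alternatives were no filter, a filter at log2 8, other probe set choices, quantile, cyclic loess and median normalization on top, eBayes with trend and robust, array weights, the hybridization group as a block, the Xist level as a covariate, a fit of the compared ages alone, and leaving out each array in turn. Only male-pattern arrays and only the higher hybridization group were added after seeing the data. Promoters came from the RefSeq table of GRCm38.p6. Markers of smooth muscle went both ways (2 higher and 1 lower of 6), and of 2 tested pancreatic acinar markers 1 was higher.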

Additional observations from a re-analysis of the deposited data

How the results depend on the processing

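Of the 49 members called between the stages, 40 (26 higher, 14 lower) kept their call under every alternative that tested them, and 0 changed sign. The 9 that did not were Cyp2j6, Fmo2, Fmo5, Gstm1, Gstm3, Gsto1, Gstt1, Mgst3 and Sult1b1. Choosing among passing probe sets leaves the probe set of a tested member as it was. Of the probe set choices, only the mean of the probe sets could therefore move a value. Ugt2b34 is among the 40 that kept their call, but its second probe set alone was not one of the alternatives. Fitted alone, that probe set had the other sign and did not pass the threshold, as given above. A filter at log2 8, which leaves fewer genes, gave 24 members changed over the ages, 16 higher after weaning, 16 higher and 7 lower on day 24 than on day 11, and 1 higher and 5 lower on day 32 than on day 24. With no filter, which tests all 134 members, 61 were higher after weaning and 2 differed between days 11 and 4; this moved the median stage difference of all genes from -0.07 to 0.04. In a fit of the compared ages alone, with fewer residual degrees of freedom, 1 was higher and 5 lower on day 32 than on day 24. Array weights gave 7 members between days 11 and 4, 1 between days 7 and 4, 1 between days 9 and 7 and 2 between days 11 and 9; the cause was not tested. The hybridization group as a block gave 2 between days 11 and 4. For these fits, and for those without 1 array below, the share of all genes called is not given beside the counts. The counts thus show how far the calls moved, and not whether members differ from other genes.

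Leaving out each array in turn gave 47 to 48 members over the ages, 29 to 35 higher and 15 to 16 lower after weaning, 30 to 32 higher and 11 to 12 lower from day 11 to day 24, 1 to 6 higher and 8 to 13 lower from day 24 to day 32, and 0 to 2 between days 11 and 4 (2 without day 24 replicate 1, 1 without day 4 replicate 1 or day 32 replicate 1). It gave 0 in each step between adjacent ages up to day 11. The number higher on day 32 was 1 without day 32 replicate 3 and 2 without day 24 replicate 2 or 3. No paired analysis was possible because the titles number individual mice, and no pair of ages shares more than 1 number.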

Other observations

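One mouse of day 24 stood out across the enzymes. Among the 3 arrays of that age, day 24 replicate 1 had the highest level for 36 of the 57 tested members (63.2%), and for 25 of the 34 that were higher after weaning. Over all 8622 genes tested the same array was the highest for 23.6%. The members for which it was the highest included Cyp3a11 (8.80 against 7.48 and 5.09), Cyp2d26 (10.19 against 9.37 and 8.60) and Cyp2c68 (8.51 against 7.72 and 7.35). Cyp2b10 (6.77 against 5.98 and 5.19) and Ugt2a3 (6.35 against 5.07 and 4.23), both below the filter, ran the same way. All these values come from the same mouse, so the members are not independent. This count was made after seeing the data and was not tested. On day 32, replicate 3 was the highest for 33 of 57 members (57.9%), against 42.8% of all genes tested.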
